A study of Mus musculus with 8 samples.

Results

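The pyruvate dehydrogenase kinases Pdk1, Pdk2, Pdk3 and Pdk4 and the phosphatase subunits Pdp1, Pdp2 and Pdpr were followed in soleus (SOL), a postural hindlimb muscle of slow and fast fibers. These 7 genes were taken by symbol from a table of 24054 genes, and all 7 passed the filter on low values that left 11865 genes for testing. RNA-seq was performed on SOL from 4 MI4KO mice and 4 flox mice, all male and C57BL/6, with the age not given. Their labels state a high-fat diet, while the paper names no diet for the sequenced mice and reports its MI4KO phenotypes on chow. All mice share the labeled diet, so effects of diet on these genes were not compared. MI4KO mice carry Irf4 flox/flox with Myl1-Cre, and flox mice are the control littermates with floxed Irf4 and no Cre. Cre is placed in the locus of Myl1, a myosin light chain gene of fast fibers. Cells of the sample without Myl1, such as immune cells, are thus not targeted. Only MI4KO mice carry this Cre allele, so its effects cannot be told apart from those of Irf4 loss. Each library comes from 1 mouse, and mice are numbered 1 to 4 within a group here.

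The pyruvate dehydrogenase complex turns pyruvate from glycolysis or lactate into acetyl-CoA and so commits carbohydrate carbon to oxidation. Its kinases phosphorylate the E1 alpha subunit and switch the complex off, and its phosphatases remove the phosphate and switch it on. In skeletal muscle, Pdk4 is the kinase known to follow nutrition: its mRNA rises in fasting, on fat-rich diets and under glucocorticoids, through FoxO, PPAR and glucocorticoid receptors. The data concern mRNA, and neither protein nor phosphorylation of the complex was measured in this series.

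Values are the deposited library-scaled read counts (CPM after TMM, a trimmed-mean scaling of libraries). Recovered reads per mouse were 13417512 to 16384565, and 3 reads correspond to values of 0.181 to 0.225. The comparison used limma on log2(value + 1), a scale that understates changes of low genes, with limits of an unadjusted p under 0.05 and a 1.5-fold difference. By these limits, 26 of 11865 genes (0.219%) were called, 399 (3.36%) had an unadjusted p under 0.05, and 0 genes (0.0%) had a Benjamini-Hochberg adjusted p under 0.05 by limma, by edgeR or by DESeq2. Irf4, the targeted gene, averaged 1.35 ± 0.451 for flox and 0.715 ± 0.324 for MI4KO mice (SD, n = 4) on 4 to 23 reads, and the groups overlapped. Its log2 fold change was -0.45 (p = 0.0402 and adjusted p = 1.0 by limma, exact permutation p = 0.114), -0.31 without MI4KO mouse 3 and -0.60 without flox mouse 1. Soleus fiber markers, a list with genes not particular to soleus such as Acta1, summed to between 106200 and 127471 in every mouse. Fiber content was not uniform by all markers. Of the fast fiber markers, Myh4 ran from 34.5 in flox mouse 3 to 2496 in flox mouse 2. Actn3 ran from 23.8 in flox mouse 4 to 333.7 in flox mouse 2, while Tnnt3 stayed between 8193 and 10420. Liver markers stood out in flox mouse 1, with a sum of 240.0 against 6.53 to 16.6 elsewhere and all 18 highest there. The sum of endothelial markers was 327 to 382 for flox and 244 to 346 for MI4KO mice. MI4KO mouse 3 was highest of all 8 mice for 30.9% of genes tested.

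None of the 7 genes was called. No member passed the limits of p and fold together in any of the alternatives, and every adjusted p was 1.0 by limma in the comparison of all 8 mice. The fold changes of the members were between -0.18 for Pdp1 and 0.21 for Pdk3 on the log2 scale, with a median of 0.02, against a median of -0.01 over all genes tested. In MI4KO mouse 3, Pdk4 and Pdk2 were at their highest and Pdk1 and Pdp1 at their lowest of all 8 mice. Being highest for 2 of 7 members is close to its 30.9% over all genes tested, while it was lowest for 13.4% of them. MI4KO mouse 4 was also highest for 2 members, Pdk3 and Pdpr, against 8.18% of all genes tested. Flox mouse 2 was lowest for 3, Pdk3, Pdp2 and Pdpr, against 15.3% of all genes tested.

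**Figure D1:**
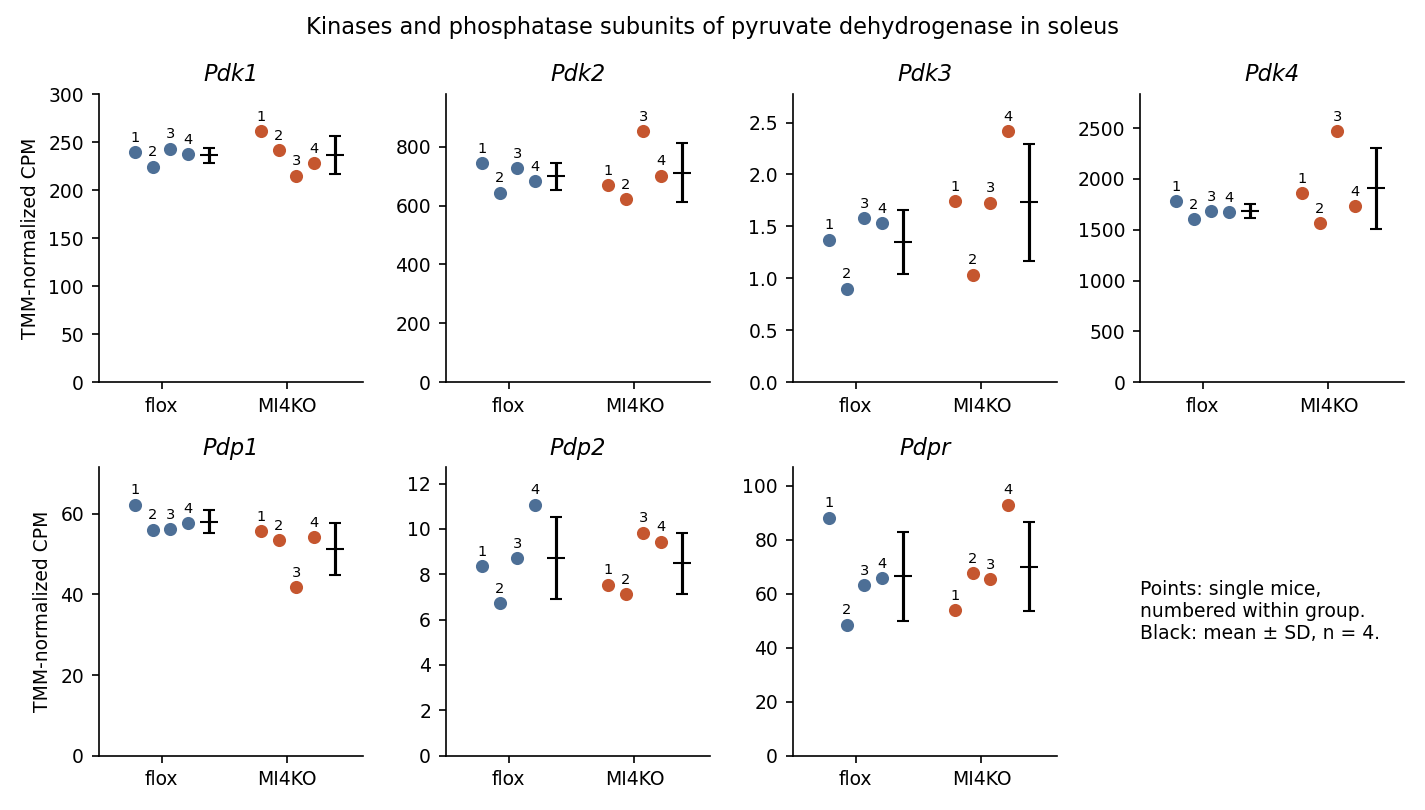
TMM-normalized CPM (y axes, each from 0) of the 4 kinases and 3 phosphatase subunits in flox mice (blue) and MI4KO mice (orange), 1 point per mouse with its number, and the mean ± SD of each group in black (n = 4). MI4KO mouse 3 is the top point for Pdk4 (2470) and Pdk2 (853.2) and the bottom point for Pdk1 (215.1) and Pdp1 (41.75), while the points of both groups overlap for all genes but Pdp1.

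Compared per kilobase of the longest annotated transcript, the order of the members was the same whichever of the annotated lengths was used. Pdk4 led with 515 ± 82.8 TMM CPM per kb (SD, n = 8 mice), followed by Pdk2 with 314 ± 32.1 and Pdk1 with 45.6 ± 2.72. Among the phosphatase genes, the regulatory subunit Pdpr was at 13.8 ± 3.1 per kb and the catalytic subunit Pdp1 at 13 ± 1.4, and these ranges overlapped, from 9.82 to 18.8 and from 9.94 to 14.8. The catalytic subunit Pdp2 was at 1.51 ± 0.259 per kb and Pdk3, a kinase better known from testis and brain, was last with 0.727 ± 0.222. Apart from Pdpr and Pdp1, no neighbors in this order overlapped. The members thus span the table: by level, not divided by length, Pdk4 was at percentile 99.4 of genes tested and Pdk3 at percentile 5.4.

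**Figure D2:**
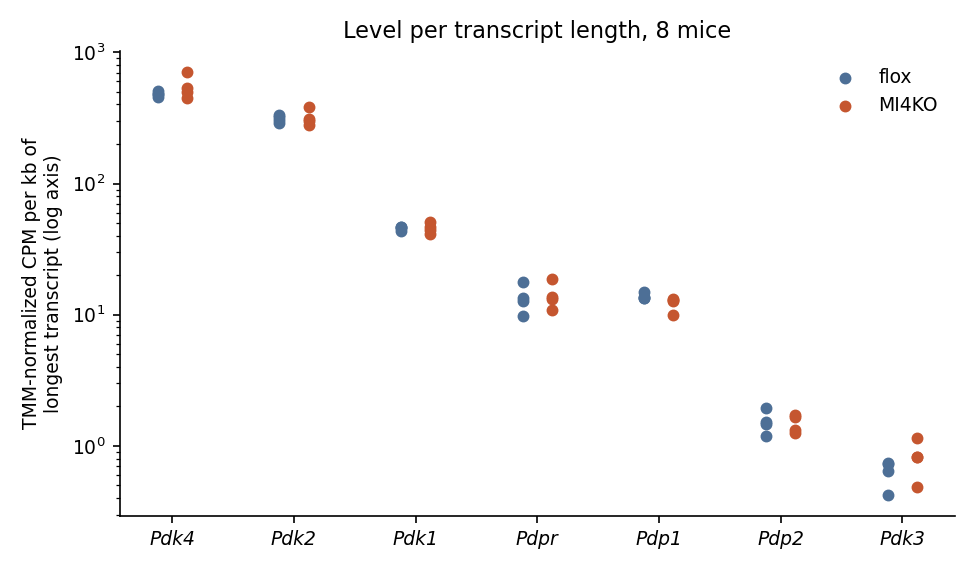
TMM-normalized CPM per kilobase of longest transcript (y axis, log scale) of each member in the 8 mice, flox in blue and MI4KO in orange, ordered by the mean over all mice. Pdk4 (448 to 709 per kb) lies above Pdk2 (277 to 380), and both lie far above Pdk3 (0.426 to 1.14).

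Of the summed kinase mRNA per length, Pdk4 made up 57.5% ± 0.723 (SD, n = 4) in flox mice and 59.8% ± 2.2 in MI4KO mice. Pdk2 made up 37.0% and 34.9%, Pdk1 5.43% and 5.14%, and Pdk3 under 1% in both groups, at 0.0753% and 0.0906%. The MI4KO shares of Pdk4 were 60.5%, 58.0%, 62.7% and 58.1% in mice 1 to 4, and the flox shares were 57.4%, 58.2%, 56.5% and 57.8%, so the groups overlapped. These shares depend on the length used: with the union of all annotated exons, Pdk4 made up 66.6% over the 8 mice in place of 58.7%.

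Pdk4 is the kinase that fasting and fat feeding induce in muscle. The gene lies on chr6:5483351-5496309 of GRCm38, on the minus strand, and its longest annotated transcript has 11 exons and 3484 bases. In flox mice 1 to 4, Pdk4 was at 1778, 1603, 1682 and 1672 TMM CPM. In MI4KO mice 1 to 4, Pdk4 was at 1860, 1562, 2470 and 1732. MI4KO mouse 3 stood above the other 7 mice, whose highest was MI4KO mouse 1, and MI4KO mouse 2 was the lowest of all. The means were 1684 ± 71.9 in flox and 1906 ± 395.3 in MI4KO mice (SD, n = 4). Pdk4 thus had a log2 fold change of 0.16 with a standard error of 0.122 and a 95% interval from -0.11 to 0.42 (p = 0.219 and adjusted p = 1.0 by limma, exact two-sided permutation p = 0.343). As a fold, that interval runs from 0.929 to 1.34. Leaving out MI4KO mouse 3 brought the log2 fold change of Pdk4 to 0.03. The mouse numbers in the labels fall into 2 ranges, whose meaning is not given. In the lower range (1 flox and 2 MI4KO mice) the difference in Pdk4 was -0.06 on the log2 scale, and in the upper range (3 and 2 mice), which includes MI4KO mouse 3, it was 0.32.

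Pdk2, the kinase found in most tissues, lies on chr11:95026258-95041354, minus strand. In flox mice 1 to 4, Pdk2 was at 744.2, 643.6, 726.9 and 682.2, and in MI4KO mice it was at 669.4, 621.8, 853.2 and 702.2. Again MI4KO mouse 3 was highest and MI4KO mouse 2 lowest, and the flox values fell between them. The means were 699.2 and 711.7, with SDs of 0.0943 and 0.195 on the log2 scale (n = 4). The log2 fold change of 0.02 (SE 0.0974, 95% interval -0.19 to 0.23, adjusted p = 1.0 by limma) became -0.07 without MI4KO mouse 3. Within the lower range of mouse numbers the difference in Pdk2 was -0.21 and within the upper range 0.18. The annotation places the antisense gene Gm11513 across Pdk2, and whether the counting used the strand of the libraries is not given in the sources used here.

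The stretches upstream of the start of Pdk4 and of Pdk2 are shown because these are the kinases with the most mRNA and both peaked in the same mouse. They are RefSeq sequence of GRCm38.p6, written along the gene, while the gene positions above are from GENCODE M21. The 2 annotations start these genes at different bases, and each stretch ends just before whichever start lies farther upstream, that of GENCODE for Pdk4 and that of RefSeq for Pdk2. Capitals mark each match to CCAAT or to the E-box CACGTG on either strand, so that ATTGG is CCAAT read on the other strand. The Pdk4 stretch is chr6:5496310-5496528 on the minus strand and the Pdk2 stretch is chr11:95041372-95041621 on the minus strand.
Pdk4: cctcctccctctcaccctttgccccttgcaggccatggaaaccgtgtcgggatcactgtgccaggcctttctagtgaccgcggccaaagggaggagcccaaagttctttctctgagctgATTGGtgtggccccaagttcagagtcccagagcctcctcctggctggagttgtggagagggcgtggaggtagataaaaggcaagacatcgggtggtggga
Pdk2: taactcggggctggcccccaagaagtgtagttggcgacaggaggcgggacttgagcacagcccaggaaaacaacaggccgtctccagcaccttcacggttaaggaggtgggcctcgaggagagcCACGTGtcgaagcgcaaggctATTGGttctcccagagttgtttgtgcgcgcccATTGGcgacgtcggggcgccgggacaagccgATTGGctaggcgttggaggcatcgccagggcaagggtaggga

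In the 250 bases before the RefSeq start, searched on both strands, Pdk2 held 3 matches to CCAAT, Pdp2 held 2, and Pdk3 and Pdk4 held 1 each, while 33.8% of 32851 promoters held at least 1. CACGTG had 1 match each in Pdk2, Pdp2 and Pdpr, against 6.02% of promoters. The GC box GGGCGG had 2 matches in Pdpr and 1 each in Pdk1, Pdk3 and Pdp2, against 32.7%. The forkhead letters TGTTTAC (3.17% of promoters), the glucocorticoid receptor half-site AGAACA (16.1%) and the nuclear receptor half-site AGGTCA (14.0%) had no match in these windows of the 6 members with an entry, all but Pdp1. None of the 6 strings contains another, and a match is a description of the sequence only.

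Pdk1, the kinase known to respond to hypoxia through Hif1a, lies on chr2:71873224-71903858, plus strand. Pdk1 was the steadiest member: in flox mice it was at 239.9, 224.5, 243.2 and 237.8, and in MI4KO mice at 261.7, 241.7, 215.1 and 228.0. The highest and the lowest of all mice were both MI4KO mice, numbers 1 and 3. Its coefficient of variation over the 8 mice was 5.97%, and its SD on the log2 scale was at percentile 10.1 of genes tested. The log2 fold change was 0.00 (SE 0.0738, 95% interval -0.16 to 0.16, adjusted p = 1.0 by limma), which as a fold runs from 0.894 to 1.12.

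Pdk3 lies on chrX:93764607-93832201, minus strand, and was measured on only 13 to 40 reads per mouse. Its values were 1.37, 0.902, 1.58 and 1.53 in flox mice and 1.74, 1.03, 1.73 and 2.42 in MI4KO mice. MI4KO mouse 4 was highest and flox mouse 2 lowest, with the rest mixed. The log2 fold change of Pdk3 was 0.21 (SE 0.177, 95% interval -0.18 to 0.59, adjusted p = 1.0 by limma).

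**Figure D3:**
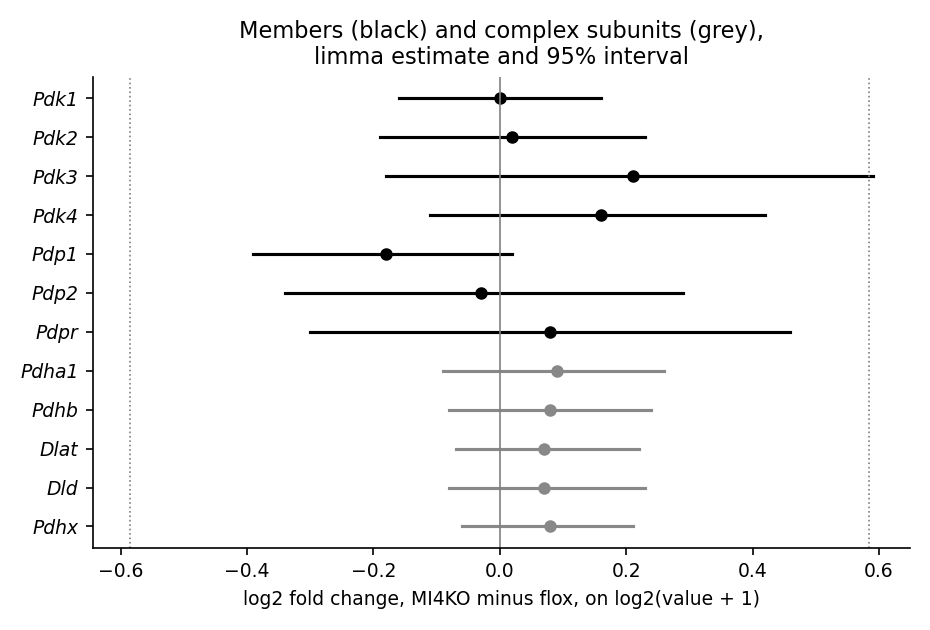
Log2 fold change of MI4KO minus flox on log2(value + 1) (x axis) with its 95% interval from limma for the 7 members (black) and the 5 tested subunits of the complex (grey), over 4 mice per group. Dotted lines mark the 1.5-fold limit, and every interval spans 0, with that of Pdp1 reaching from -0.39 to 0.02.

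Pdp1 is the calcium-stimulated catalytic subunit of the phosphatase and the main one in muscle. It lies on chr4:11958184-11966452, minus strand. In flox mice 1 to 4, Pdp1 was at 62.28, 56.05, 56.20 and 57.63, and in MI4KO mice at 55.64, 53.40, 41.75 and 54.21. On the deposited scale each MI4KO mouse was below each flox mouse, but MI4KO mouse 1 and flox mouse 2 were neighbors and rest on 767 and 808 reads, with exact 95% Poisson intervals from 51.8 to 59.7 and from 52.3 to 60.1 that cover counting error only. Without overlap stood 246 of 11865 genes (2.07%), of which 202 (1.7% of genes tested) were lower and 44 (0.371%) higher in MI4KO mice. The means of Pdp1 were 58.0 ± 2.92 and 51.2 ± 6.4 (SD, n = 4). Its log2 fold change was -0.18 (SE 0.0934, 95% interval -0.39 to 0.02, p = 0.0717 and adjusted p = 1.0 by limma, exact two-sided permutation p = 0.0286). This exact p is the smallest possible with 4 against 4 mice, before any correction for 7 members. This result depended on the scaling. With the same reads scaled to library size, MI4KO mice were at 57.16, 58.18, 38.33 and 56.09 and flox mice at 61.9, 58.06, 52.36 and 56.5, the groups overlapped, and the exact permutation p was 0.514. With median-of-ratios scaling it was 0.229. Without MI4KO mouse 3 the log2 fold change was -0.09, and without both that mouse and flox mouse 1, which had the highest Pdp1, it was -0.06. Within the lower and upper ranges of mouse numbers the differences were -0.19 and -0.25. Flox mouse 1 is the only flox mouse of the lower range, and the upper range includes MI4KO mouse 3. Each of these differences thus rests in part on 1 of those mice.

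Pdp2, the catalytic subunit known to fall in starvation, lies on chr8:104591451-104599026, plus strand. Pdp2 was at 8.35, 6.73, 8.70 and 11.07 in flox mice and at 7.54, 7.11, 9.84 and 9.43 in MI4KO mice. Both extremes were flox mice. The log2 fold change was -0.03 (SE 0.145, 95% interval -0.34 to 0.29, adjusted p = 1.0 by limma).

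Pdpr encodes the regulatory subunit that holds the phosphatase back, and lies on chr8:111094630-111137074, plus strand. Pdpr varied most among the well-measured members, with an SD on the log2 scale at percentile 92.3 of genes tested and a coefficient of variation of 22.5%. It was at 88.10, 48.49, 63.18 and 65.72 in flox mice and at 53.90, 67.49, 65.35 and 92.95 in MI4KO mice. The top values came from 1 mouse of each group, flox mouse 1 and MI4KO mouse 4. The log2 fold change was 0.08 (SE 0.175, 95% interval -0.30 to 0.46, adjusted p = 1.0 by limma), and it was -0.54 within the lower range of mouse numbers and 0.41 within the upper. The gene 9430091E24Rik overlaps Pdpr on the opposite strand, with the same limit on strand as for Pdk2.

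Of all windows of 50 bases in the longest transcript, the length of the reads, 1.43% in Pdk4, 0.266% in Pdpr, 0.0709% in Pdp2 and 0.0% in the other members also occur in another gene. No window is shared between members.

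Relative to the median of the other 7 mice, MI4KO mouse 3 had 1.47-fold Pdk4, 1.25-fold Pdk2, 0.897-fold Pdk1 and 0.749-fold Pdp1. Among all genes tested, its deviation was at percentile 96.6 for Pdk4, 88.5 for Pdk2, 18.9 for Pdk1 and 6.52 for Pdp1. It had 1.08-fold Pdk3, 1.16-fold Pdp2 and 0.994-fold Pdpr, and was neither the highest nor the lowest mouse for these. Its positions at the top for Pdk4 and Pdk2 and at the bottom for Pdk1 and Pdp1 were the same under median-of-ratios and library-size scaling. Under library-size scaling, this mouse was highest for 13.2% and lowest for 25.7% of genes tested, in place of 30.9% and 13.4%.

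**Figure D4:**
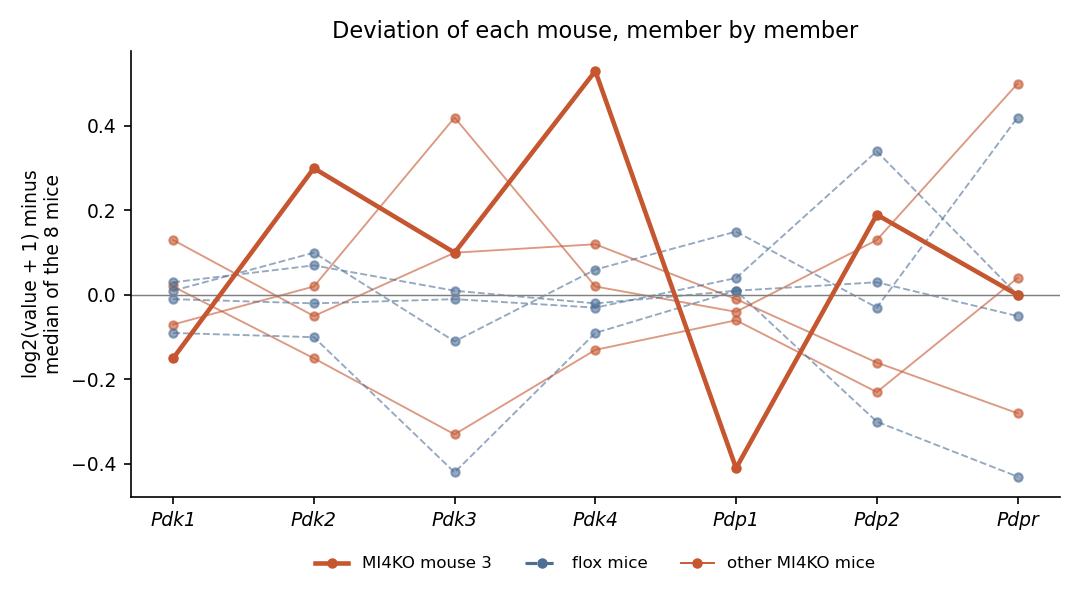
Log2(value + 1) of each member minus its median over the 8 mice (y axis), with 1 line per mouse joining its members, flox dashed blue and MI4KO solid orange, MI4KO mouse 3 drawn thick. That mouse is highest for Pdk4 and Pdk2, lowest for Pdp1 and Pdk1, and lies among the others for Pdk3, Pdp2 and Pdpr.

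The ratio of kinase to phosphatase mRNA was highest in that animal. Ratios within a mouse do not depend on the scaling between mice. Summed kinase mRNA over summed Pdp1 and Pdp2 mRNA, both per length, was 54.5, 54.4, 57.3 and 53.0 in flox mice 1 to 4, and 60.6, 55.3, 97.0 and 58.7 in MI4KO mice 1 to 4. MI4KO mice 1, 3 and 4 were above all flox mice and MI4KO mouse 2 was within their range. Pdk4 over Pdp1 was 34.4, 34.5, 36.1 and 35.0 in flox mice, and 40.3, 35.3, 71.3 and 38.5 in MI4KO mice. Pdk4 over Pdk2 was 1.55 ± 0.0499 in flox and 1.72 ± 0.134 in MI4KO mice (SD, n = 4), with the lowest MI4KO mouse at 1.59 and the highest flox mouse at 1.61. Scores built from the members were not tested.

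Pairs of members differed in how they varied across mice. Over the 8 mice, Pdk2 and Pdk4 had Pearson's r = 0.87, and over the 7 without MI4KO mouse 3 they had 0.58. Pdk4 and Pdp1 had r = -0.78 over 8 mice and 0.40 over those 7, so the negative sign rested on that mouse. These are descriptions over mice that share 1 scaling. Among all genes tested, the profiles most like Pdk4 were those of Epn1, an endocytic adaptor, Ybx3, an RNA-binding Y-box protein, and Hdac3, a histone deacetylase, each with r = 0.98 over 8 mice, Spearman's rho of 0.93, 0.88 and 0.88, and r = 0.83, 0.81 and 0.81 without the 2 mice farthest from the median of Pdk4. For Pdk2 they were Tbc1d16, 2610507B11Rik and Camta2, a calmodulin-binding transcription activator, with r = 0.99, 0.97 and 0.97 and, without the 2 farthest mice, 0.95, 0.93 and 0.98. For Pdp1 they were 2310015D24Rik, Zfp704 and Wscd1, with r = 0.98, 0.97 and 0.97, which dropped to 0.66, 0.76 and 0.37 without the 2 farthest mice. For Pdpr they were Ago2, the slicing Argonaute of small RNA pathways, Synj1 and Secisbp2l, with r = 0.99, 0.98 and 0.97 and at least 0.97 without the 2 farthest mice. For Pdk1 they were Tmem202, Thyn1 and Fhl2 (r = 0.97, 0.96 and 0.95), for Pdk3 Acad12 and Fgd6 (0.96 and 0.95), and for Pdp2 Znf512b, Abhd17b and Cep95 (0.97, 0.96 and 0.96). All were picked for the highest r among 11865 genes over 8 mice, so high values follow from the choice. Whether any exceeds chance was not tested.

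The subunits of the complex that the kinases act on showed small differences. All 5 tested subunits had a positive log2 fold change, between 0.07 and 0.09, as had 5194 of 11865 genes tested, and 0 of 5 were called. Without MI4KO mouse 3 the values were 0.03 for Pdha1 and Pdhb, 0.04 for Dlat, 0.05 for Dld and 0.07 for Pdhx, and without flox mouse 1 as well Pdhb was at 0.00. With library-size scaling they were 0.13 for Pdha1 and 0.12 for the other subunits, again with 0 of 5 called. Pdha1, the E1 alpha subunit that carries the phosphorylation sites, was at 1077 ± 19.3 in flox and 1147 ± 110.8 in MI4KO mice (SD, n = 4), with a log2 fold change of 0.09 (SE 0.0815). Pdhb, the E1 beta subunit, was at 364.0 ± 15.9 and 385.1 ± 30.8, with a log2 fold change of 0.08. Dlat, the acetyltransferase core, was at 322.2 ± 11.3 and 338.9 ± 17.2, and Dld, the dehydrogenase shared with other complexes, at 318.5 ± 11.0 and 335.4 ± 24.1, each with a log2 fold change of 0.07. Pdhx, which binds Dld to the core, was at 122.4 ± 2.59 and 129.4 ± 4.21, and was the only tested subunit whose groups did not overlap on the deposited scale, with a log2 fold change of 0.08 (adjusted p = 1.0 by limma, exact permutation p = 0.0286). Over all genes tested, 44 of 11865 (0.371%) were higher in MI4KO mice without overlap. MI4KO mouse 3 was highest for Pdha1, Pdhb and Dlat. Pdha2, the testis form of E1 alpha, had at most 1 read in a mouse. Because these are whole muscles, fewer cells of a type and less RNA per cell cannot be told apart. Of the kinase and phosphatase of the sister complex for branched-chain keto acids, Bckdk had a log2 fold change of 0.04 and Ppm1k of -0.09, and without MI4KO mouse 3 these were -0.05 and -0.02.

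Of the 10 genes that supply pyruvate or use it otherwise, 0 were called and the median log2 fold change was -0.01. It ranged from -0.09 for the lactate exporter Slc16a3 to 0.24 for the alanine aminotransferase Gpt2. Without MI4KO mouse 3 these were -0.30 and -0.14. Of these 10 genes, 8 were highest in MI4KO mouse 3, against 30.9% of all genes tested. The mitochondrial pyruvate carrier genes Mpc1 and Mpc2 differed by 0.06 and 0.01 on the log2 scale.

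Of the 18 genes listed as regulators of Pdk transcription, 17 were tested and 0 called, with 14 differences above 0 and a median of 0.10. Over all genes tested, 5194 of 11865 differences were above 0. The lowest was Pparg, the PPAR of fat cells, at 7.42 ± 0.574 in flox and 5.15 ± 0.644 in MI4KO mice (SD, n = 4), without overlap. Of 11865 genes tested, 202 (1.7%) were lower in MI4KO mice without overlap. Pparg had a log2 fold change of -0.46 (p = 0.00158 and adjusted p = 1.0 by limma, exact permutation p = 0.0286), under the 1.5-fold limit. The sum of adipocyte markers was 302 to 370 for flox and 231 to 336 for MI4KO mice. Fabp4 was the largest part of that sum, with means of 240.0 and 210.2. Of the 7 markers tested, 6 were lower in MI4KO mice, as were 6671 of 11865 genes tested, and 1 was higher. Of these markers 1, Cfd, was called, lower. The part of adipocyte markers in the value of Pparg was not tested. The highest difference was 0.40 for Foxo1, a forkhead factor that induces Pdk4, and it was -0.07 without MI4KO mouse 3. Hif1a differed by -0.01 and Nr3c1, the glucocorticoid receptor, by 0.10. MI4KO mouse 3 was the highest mouse for 10 of the 17, against 30.9% of all genes tested. The widest gaps to the next mouse were for Foxo1 (123.6 against 41.8), Ppara (209.8 against 100.7) and Rxrg (47.1 against 26.6).

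Of 20 genes of fatty acid use under PPAR control, 0 were called and the median was -0.03. Plin2, a lipid droplet coat, had the highest log2 fold change with 0.12, which was 0.02 without MI4KO mouse 3. MI4KO mouse 3 was highest for 13 of the 20, against 30.9% of all genes tested. The widest gaps were for Acot1 (84.4 against 51.5), Ucp3 (226.6 against 164.4) and Plin5 (224.4 against 170.9).

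Of 15 glucocorticoid-responsive genes, 0 were called, with a median of 0.20 and a range from -0.21 for the clock gene Per1 to 0.94 for the metallothionein Mt2. MI4KO mouse 3 was the highest mouse for 15 of 15, under the deposited scaling and both others. Over all genes tested, it was highest for 30.9%, 21.4% and 13.2% under the deposited, median-of-ratios and library-size scaling. As the list was chosen with earlier results of these data known, this count is a description only. Mt2 was at -0.04 without MI4KO mouse 3. On the reads of all 8 mice, Mt2 was at 2.35 by edgeR and 2.37 by DESeq2, with no adjusted call by either. Per1 was at -0.44 without that mouse and at -0.53 without flox mouse 1 as well. The widest gaps were those of Mt1, Mt2 (59.6 against 7.63) and Arrdc2 (87.2 against 16.7). Of 12 FoxO and atrophy genes, 0 were called, the median was 0.05, and the range ran from -0.14 for Irs2 to 0.24 for the ubiquitin ligase Trim63. Without MI4KO mouse 3 these were -0.31 and -0.08. That mouse was highest for 5 of the 12, with the widest gaps for Trim63 (326.5 against 172.8), Fbxo31 (347.5 against 215.1) and Map1lc3b (258.7 against 199.7). It also had the highest sums of fast fiber markers, 50405.5 against 34675.9 to 44257.1, and of immune cell markers, 36.6 against 21.2 to 30.3. Single markers were mixed, as it was highest for 5 of 10 fast fiber and 4 of 9 immune markers. Lyz2 alone gave 20.8 of its immune sum. All values of this mouse also summed highest, to 1089208 against 917785 to 1073404 in the others. How these values bear on Pdk4, Pdk2, Pdk1 and Pdp1 in that mouse was not tested.

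**Figure D5:**
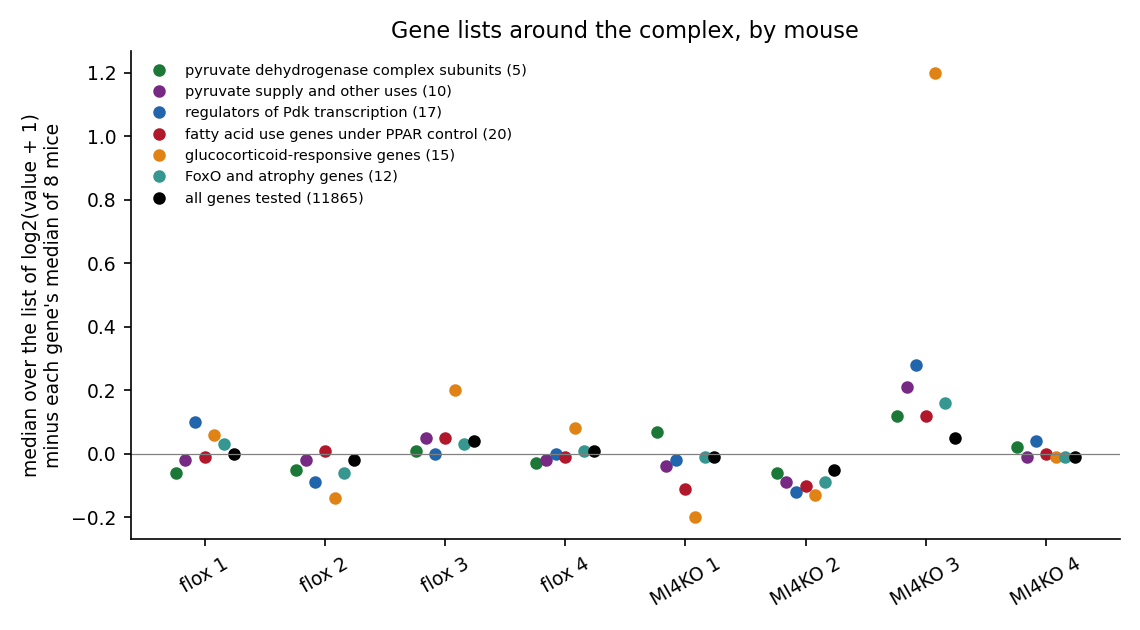
Median over each gene list of log2(value + 1) minus the gene's own median over the 8 mice (y axis) for each mouse (x axis), with the number of tested genes in brackets and all genes tested in black. The glucocorticoid-responsive list reaches 1.2 in MI4KO mouse 3 and lies from -0.2 to 0.2 in all others, and the other lists stay between -0.12 and 0.28. The lists were chosen with earlier results of these data known.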

How the data were processed

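Stranded poly(A) libraries were sequenced as single reads of 50 bases. Per the submitters' processing notes and the study's methods, reads were demultiplexed with bcl2fastq 2.17, mapped with Bowtie2 2.1.0 to UCSC transcripts (mm10) and estimated with RSEM 1.2.15. Per gene and mouse, the authors deposited a TMM-scaled CPM signal, and their filter on low genes is not given in the sources used here. The authors' own fold changes, p-values and FDR were not used. Each value was divided by the smallest step of its mouse, and 100% of non-zero values gave whole reads (tolerance 0.05), which cover counting error only. Of 24054 rows, 6086 had no read.

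Genes that reached a value of 1 in 4 or more of 8 mice were tested with limma 3.58.1 (R 4.3.3, trend) on log2(value + 1), 4 MI4KO against 4 flox mice. Limits were p under 0.05 with a 1.5-fold change, or a Benjamini-Hochberg adjusted p under 0.05. Single members were also compared by exact two-sided permutation tests (scipy 1.17.1). edgeR 4.0.16 (quasi-likelihood) and DESeq2 1.42.0 on recovered reads were alternatives, beside other pseudocounts, filters, scalings, trend settings, mouse number range as a covariate, and mice left out. The main limma fit and the edgeR and DESeq2 fits were tested on simulated data, and the other settings were not. Permutation tests under other scalings were added after seeing the data. Members and lists were chosen with earlier results of these data known. Named genes are the members, Irf4, the subunits, the lowest and highest of each list with any called gene, the 3 profiles most like each member and the 3 widest gaps per list, of which some are not reported here. Mpc1, Mpc2, Hif1a and Nr3c1 were added with their values known. Positions are from GENCODE M21. The GAS samples were not analysed here.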

Additional observations from a re-analysis of the deposited data

Results flagged for a closer look

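Among the MI4KO mice, Pdp1 in mouse 3 was at 41.7 TMM CPM, far from the other 3 mice relative to the range of the group. The same mouse stood apart in summed kinases over Pdp1 plus Pdp2 (97.0) and in Pdk4 over Pdp1 (71.3), which share the Pdp1 value and are not separate observations. Among the flox mice, the Pdk1 share of kinase mRNA was 5.21% in mouse 1, the mouse with the high liver markers, against 5.48% to 5.52% in the others. Of 42 groups of 4 mice examined, 4 were flagged in this way, and chance flags about 1 in 20.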

How the results depend on the processing

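No member was past the limits of p and fold in any alternative, and the smallest p of Pdk4 was 0.0395 (library-size scaling, log2 fold change 0.20) and of Pdp1 0.0261 (mouse number range as covariate, -0.23). Pdk3, Pdk4 and Pdp1 kept their direction in all alternatives run on them, at 0.08 to 0.39, 0.03 to 0.25 and -0.23 to -0.06. The exact permutation p of Pdp1 (0.0286) was 0.0571 with any mouse left out, the smallest possible for 3 against 4, and 0.229 and 0.514 under median-of-ratios and library-size scaling, so it depends on the scaling.

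Differences near 0 changed sign. Pdk1 was at 0.02 with median-of-ratios scaling, edgeR and DESeq2, 0.04 with library-size scaling, 0.05 without both flox mouse 1 and MI4KO mouse 3, and -0.05 to 0.04 with 1 mouse left out. Its exact permutation p was 1.0 on the linear scale, 0.886 and 0.829 under the 2 scalings, and 0.457 to 0.971 with 1 mouse left out. Pdk2 was at -0.04 without both mice and -0.07 to 0.08 with 1 left out (exact permutation p 0.343 to 1.0). Pdp2 was at 0.01 with library-size scaling (exact permutation p = 1.0), 0.03 with the covariate, and -0.13 to 0.08 with 1 mouse left out (0.457 to 0.914). Pdpr was at -0.07 to 0.22 with 1 left out (0.343 to 0.914). Among named list genes, Slc16a3 was at 0.01 with the covariate and -0.30 to 0.14 with 1 mouse left out, and without both mice Ppm1k was at 0.04, Bckdk at -0.04 and Gpt2 at -0.10. With 1 mouse left out, Bckdk ranged from -0.05 to 0.07, Foxo1 from -0.07 to 0.61, Gpt2 from -0.14 to 0.43, Irs2 from -0.34 to 0.16, Mt2 from -0.04 to 1.46 and Trim63 from -0.08 to 0.38.

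The 26 genes past the limits became 71 and 5 with pseudocounts of 0.1 and 5, 14 with a minimum of 5, 13 with robust estimation, 65 with edgeR, 51 with DESeq2, 41 without both mice and 19 to 58 with 1 mouse left out, the most without MI4KO mouse 4. Adjusted calls were 0 to 1 with 1 mouse left out, the 1 without MI4KO mouse 2, and 1 without both mice. The cause of these shifts was not tested. No paired analysis was run, because the labels used here give each mouse its own number and name no pair or litter. Pdk3 rests on 13 to 40 reads per mouse.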
